A study of Mus musculus with 8 samples.

Results

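Transforming growth factor beta (TGF-beta) is a family of secreted proteins that controls growth, differentiation and extracellular matrix in many tissues. The 9 genes described here are its ligand genes Tgfb1, Tgfb2 and Tgfb3, its receptor genes Tgfbr1, Tgfbr2 and Tgfbr3, and the SMAD genes Smad2, Smad3 and Smad7. They were taken by symbol, and all 9 were found among the 23997 gene symbols listed for each library. A ligand dimer is held latent in the matrix until released, then brings the type II receptor (Tgfbr2) together with the type I receptor (Tgfbr1), whose kinase phosphorylates SMAD2 and SMAD3. These enter the nucleus with SMAD4 and act on target genes, while SMAD7 is induced by the pathway and blocks the receptors. In the developing brain the pathway is known for roles in neuronal differentiation, in radial glia and in the formation of astrocytes.

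The genes were measured by RNA-seq in cultured neural stem/precursor cells of the mouse, which divide and form neurons and then glia. They had been prepared from E11.5 telencephalon of the ICR strain (the stage label reads E11) and kept as an adherent culture on poly-L-ornithine and fibronectin with 10 ng/mL basic fibroblast growth factor. Of the RNA-seq libraries, 3 came from control cells and 3 from cells transduced with Nfia, a transcription factor gene of the nuclear factor I (NFI) family that is known for its part in the start of gliogenesis. RNA was taken 3 days after transduction. The labels do not state what the control cells received, which vector was used or whether each library is a culture of its own. The spread behind every p-value is therefore that between libraries and may be technical. Values are FPKM, fragments of a gene scaled to its length and to the library size, so levels of different genes can be set side by side. The files hold no counts and the absolute depth is unknown. Relative depth was estimated from the commonest ratio of the control 1 value to that of another library among low genes. This assumes that equal fragment numbers are the commonest case there. It was 0.760 to 1.11 times that of control 1.

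Nfia was 19.8, 23.9 and 22.2 FPKM in controls 1, 2 and 3 and 69.0, 85.6 and 103.5 FPKM in Nfia libraries 1, 2 and 3. All 12 markers of neural precursors on the list used reached a mean of 1 FPKM, and 5 rose while 4 fell. Notch1, Nes, Vim, Hes1 and Slc1a3 rose, and Sox1, Pax6, Hes5 and Msi1 fell. Microglial and endothelial markers were low: 9 microglial markers summed to 2.10 to 3.74 FPKM and 8 endothelial markers to 2.19 to 4.61 FPKM in a library. The sum of 9 mesenchymal and pericyte markers, among them the collagen genes Col1a1 and Col3a1, differed within both groups: 9.86 FPKM stood in control 1 and 8.43 FPKM in Nfia 1, against 18.1 to 20.1 FPKM in the other libraries. Neuron markers summed to 1702 to 1783 FPKM in control and 1074 to 1095 FPKM in Nfia libraries, and 9 of 10 fell. Astrocyte markers summed to 192 to 214 FPKM in the controls and 255 to 264 FPKM in the Nfia libraries, but of 5 tested only Aldoc rose, while Gfap and Aldh1l1 fell. Those of oligodendrocyte precursors summed to 355 to 400 and 1048 to 1110 FPKM, and of 6 tested Olig1 and Olig2 rose while Pdgfra fell. The part of these cell types in the results on TGF-beta genes was not tested. In such bulk samples fewer cells of a type and less RNA per cell cannot be told apart.

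The comparison asked which of the TGF-beta genes differ between Nfia-transduced and control cells. Among the 9, only Tgfbr2 passed the test, and it was about as far from control as a doubling on the FPKM scale. Each log2 difference subtracts the control mean of log2(FPKM + 1) from the Nfia mean, so changes of low genes are understated. The test was limma on the 12537 genes whose mean reached 1 FPKM, with Benjamini-Hochberg adjustment and a threshold of 0.05. Of the 9 genes, 7 passed that filter: Smad7 lay just inside it at a mean of 1.23 FPKM over the 6 libraries, and Tgfb1 (0.614 FPKM) and Tgfbr3 (0.505 FPKM) lay outside. Of the 7, 1 was called higher and 0 lower, against 16.1% higher, 15.1% lower and 31.3% in either direction among all genes tested. The groups did not overlap in 3 of the 7, against 47.7% of all genes tested. Both shares lay at or below those of all genes. The median log2 difference was -0.06 for the 7 and 0.01 for all genes tested.

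**Figure D1:**
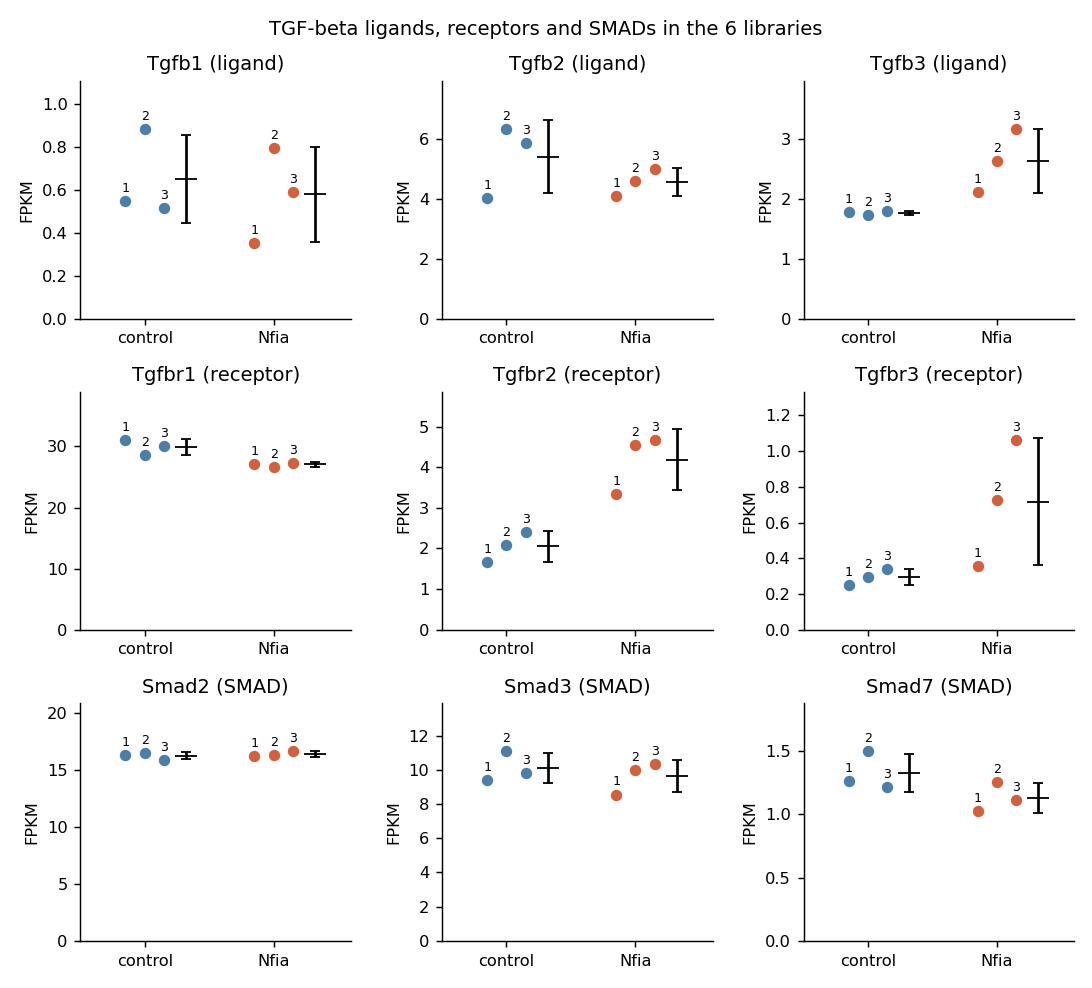
FPKM of each of the 9 genes (y axes from 0, one scale per gene) in the 3 control and 3 Nfia libraries; points carry the replicate number and the bar is the mean with its SD. The Tgfbr2 points of the Nfia group, 3.33 to 4.68 FPKM, all lie above those of the control group, 1.66 to 2.40 FPKM.

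The levels of the 9 genes spanned from under 1 to about 30 FPKM. In control cells the order of means was Tgfbr1, Smad2, Smad3, Tgfb2, Tgfbr2, Tgfb3, Smad7, Tgfb1 and Tgfbr3, and the only neighbours whose library ranges overlapped were Tgfbr2 and Tgfb3. In Nfia cells the order was the same down to Smad7, followed by Tgfbr3 and then Tgfb1. There the ranges of Tgfb2 and Tgfbr2 overlapped, as did those of Smad7 and Tgfbr3 and those of Tgfbr3 and Tgfb1, while Tgfbr2 lay apart from Tgfb3. The level of the type I receptor gene was thus well above that of the type II receptor gene in both groups.

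Among the ligand genes, Tgfb2 was the most abundant in every library. It encodes TGF-beta 2 and lies on chromosome 1 from 186622787 to 186709697 in GRCm38. Tgfb2 was 4.03, 6.35 and 5.85 FPKM in the controls and 4.09, 4.58 and 5.01 FPKM in the Nfia libraries. Control 1 lay below all Nfia libraries and the other controls above them, so the groups overlapped. The means were 5.41 ± 1.22 and 4.56 ± 0.462 FPKM (SD, n = 3 per group), and the log2 difference of -0.19 (95% interval -0.55 to 0.17) did not pass the test (limma adjusted p = 0.369). Without control 1 the log2 difference was -0.36 with an adjusted p of 0.0494, just past the threshold.

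Tgfb3, the TGF-beta 3 gene, lies on chromosome 12 from 86056743 to 86079041. It was 1.79, 1.73 and 1.80 FPKM in the controls and 2.11, 2.63 and 3.18 FPKM in the Nfia libraries, so the groups did not overlap, and the Nfia libraries were more spread. The group means were 1.77 ± 0.0353 and 2.64 ± 0.534 FPKM (SD, n = 3 per group), a ratio of 1.49. The log2 difference of 0.38 (SE 0.12, 95% interval 0.09 to 0.67) missed the threshold by little (limma adjusted p = 0.054). Without Nfia 1 the log2 difference was 0.49 and passed (adjusted p = 0.0186), and without Nfia 2 the adjusted p was 0.123. The call of this gene therefore turned on the setting, while the log2 difference was above 0 in each of the 16 alternatives run.

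Tgfb1, the TGF-beta 1 gene on chromosome 7 from 25687002 to 25705077, was the lowest of the ligand genes. It was 0.547, 0.885 and 0.514 FPKM in the controls and 0.353, 0.794 and 0.591 FPKM in the Nfia libraries, and the groups overlapped. It lay below the filter. With no filter on low values the log2 difference was -0.06 (limma adjusted p = 0.78).

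The summed FPKM of the 3 ligand genes was 7.83 ± 1.33 in control and 7.78 ± 1.13 with Nfia (SD, n = 3 per group). The makeup of that sum differed in these libraries, which the test below could not decide. Tgfb3 made up 28.1%, 19.3% and 22.0% of it in the controls and 32.2%, 32.8% and 36.2% in the Nfia libraries, 10.6 percentage points more on average. Tgfb2 made up 63.3%, 70.8% and 71.7% in the controls and 62.4%, 57.2% and 57.1% in the Nfia libraries, a difference of -9.71 points. Neither share overlapped between the groups, but they are parts of the same sum and not separate results. For both, the exact two-sided permutation test over the 6 libraries gave p = 0.1, the smallest that 3 against 3 can give, and 0.12 adjusted over the 6 ligand and receptor shares, so no share could pass 0.05. The share of Tgfb1 was 8.26% ± 1.81 in control and 7.35% ± 2.33 with Nfia (SD, n = 3 per group; exact permutation p = 0.8).

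Among the receptor genes, Tgfbr2 rose. It encodes the type II receptor, the kinase that binds ligand and activates the type I receptor, and lies on chromosome 9 from 116087695 to 116175363. Tgfbr2 was 1.66, 2.09 and 2.40 FPKM in the controls and 3.33, 4.55 and 4.68 FPKM in the Nfia libraries. The groups did not overlap, and Nfia 1 was the lowest of its group, as control 1 was of its own. The mean went from 2.05 ± 0.373 to 4.19 ± 0.743 FPKM (SD, n = 3 per group), a 2.04-fold increase, with a log2 difference of 0.76 (SE 0.14, 95% interval 0.43 to 1.10; limma adjusted p = 0.00831). Of the 12537 genes tested, 332 had a larger log2 difference. The call held in each of the 16 alternatives that tested the gene, with log2 differences of 0.67 to 1.00 and adjusted p of 0.00167 to 0.0388, and leaving out any 1 library gave at most 0.0388.

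Type II receptor transcripts are also known from vessel, mesenchymal and microglial cells, so the marker sums are set beside this result. The microglial sum ranged from 3.66 to 3.74 FPKM over the controls and from 2.10 to 3.22 FPKM over the Nfia libraries, with 0 of 9 markers reaching a mean of 1 FPKM and none at 0 in all libraries. The endothelial sum ranged from 3.46 to 4.61 FPKM and from 2.19 to 2.94 FPKM, and 1 of 8 markers reached the filter. The mesenchymal sum was 9.86, 20.1 and 19.3 FPKM in the controls and 8.43, 18.9 and 18.1 FPKM in the Nfia libraries, and 6 of 9 markers reached the filter, of which 0 rose and 1 (Rgs5) fell. Within both groups Tgfbr2 was lowest in the library with the lowest mesenchymal sum, control 1 and Nfia 1. The markers below the filter differed in direction. Twist1 averaged 0.55 FPKM in the controls and 1.13 FPKM in the Nfia libraries, with the groups apart. Kcnj8 averaged 0.853 FPKM in the controls and 0.422 FPKM in the Nfia libraries, also apart, and Anpep overlapped. Without replicate 1 of both groups, a comparison added after these sums were seen, the log2 difference of Tgfbr2 was 0.79 (limma adjusted p = 0.0174), and the mesenchymal marker Col1a1 was then called higher too (0.57, adjusted p = 0.0257). The part of these cell types in the Tgfbr2 result was not tested.

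Tgfbr1, the type I receptor gene on chromosome 4 from 47353222 to 47414926, was the most abundant of the 9. It was 31.1, 28.5 and 30.1 FPKM in the controls and 27.2, 26.7 and 27.4 FPKM in the Nfia libraries. The groups did not overlap, but the gap was small: the means were 29.9 ± 1.30 and 27.1 ± 0.361 FPKM (SD, n = 3 per group), a ratio of 1.11 of control to Nfia. The log2 difference of -0.14 (SE 0.04, 95% interval -0.25 to -0.03) missed the threshold (limma adjusted p = 0.0545). It passed without control 2 (adjusted p = 0.0363) and with upper-quartile scaling (0.0253), quantile normalization (0.0305), median-of-ratios scaling (0.0437) and a filter at a mean of 5 FPKM (0.0472). Leaving out Nfia 2 gave 0.148.

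Tgfbr3 encodes betaglycan, a co-receptor without a kinase that presents ligand, TGF-beta 2 above all, to the type II receptor. It lies on chromosome 5 from 107106567 to 107289629. Tgfbr3 was 0.253, 0.293 and 0.339 FPKM in the controls and 0.354, 0.729 and 1.06 FPKM in the Nfia libraries. The Nfia libraries all lay above the controls, with Nfia 1 close to control 3 and the Nfia group widely spread. The gene was below the filter. With no filter the log2 difference of 0.39 did not pass (limma adjusted p = 0.133), nor did 0.95 with no filter and a pseudocount of 0.1 (adjusted p = 0.122).

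The summed FPKM of the 3 receptor genes was 32.3 ± 1.17 in control and 31.96 ± 1.12 with Nfia (SD, n = 3 per group). Tgfbr2 made up 5.02%, 6.76% and 7.30% of it in the controls and 10.8%, 14.2% and 14.1% in the Nfia libraries. Tgfbr1 made up 94.2%, 92.3% and 91.7% in the controls and 88.1%, 83.5% and 82.7% in the Nfia libraries. Both shares were apart between the groups, with differences of 6.70 percentage points for Tgfbr2 and -7.998 points for Tgfbr1 (exact two-sided permutation p = 0.1 each, the smallest possible). As parts of the same sum, these shares are not separate results. The share of Tgfbr3 was 0.916% ± 0.137 in control and 2.22% ± 1.04 with Nfia (SD, n = 3 per group), also apart (exact permutation p = 0.1). In these libraries the receptor sum stayed within its spread and the share of the type II receptor gene was larger. The test of shares could not decide on that makeup, since its smallest p is 0.1.

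**Figure D2:**
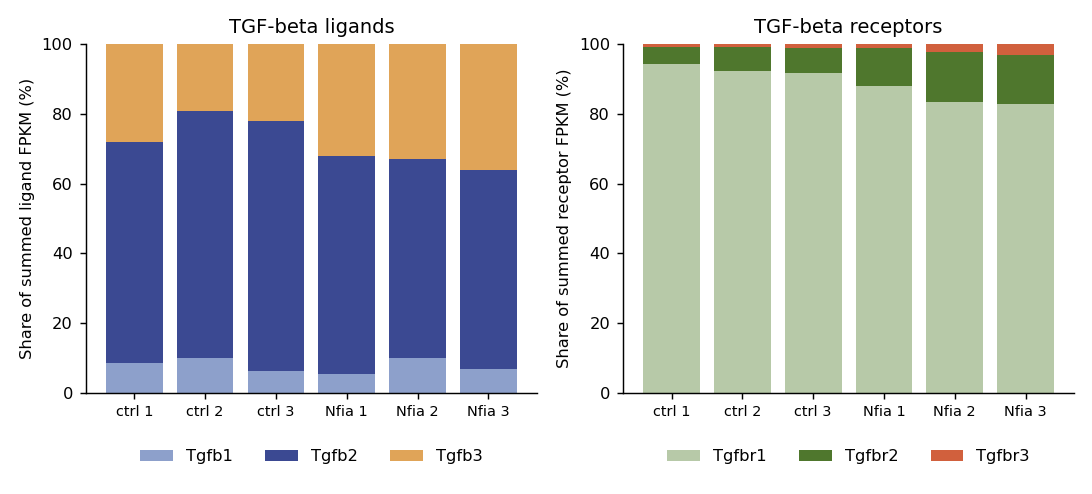
Stacked bars give the percent of the summed ligand FPKM (left) and of the summed receptor FPKM (right) that each gene took in each of the 6 libraries. Tgfb3 took 32.2% to 36.2% of the ligand sum in the Nfia libraries against 19.3% to 28.1% in control, and Tgfbr2 took 10.8% to 14.2% of the receptor sum against 5.02% to 7.30%.

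The 250 bases before the annotated start are shown for the receptor pair, the gene that rose and its far more abundant partner, because the transduced factor binds DNA. Of the 9 genes, 5 had an entry in the RefSeq promoter table of GRCm38.p6. The sequences are printed 5′ to 3′ on the strand of the gene, with capitals where the NFI core TTGGC or its reverse complement GCCAA was found.
Tgfbr2, chr9:116175364-116175613, minus strand: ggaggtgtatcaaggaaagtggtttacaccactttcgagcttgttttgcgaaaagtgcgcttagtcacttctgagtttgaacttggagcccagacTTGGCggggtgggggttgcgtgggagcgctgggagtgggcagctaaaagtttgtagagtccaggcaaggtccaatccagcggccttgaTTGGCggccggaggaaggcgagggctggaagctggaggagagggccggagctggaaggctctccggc
Tgfbr1, chr4:47352972-47353221, plus strand: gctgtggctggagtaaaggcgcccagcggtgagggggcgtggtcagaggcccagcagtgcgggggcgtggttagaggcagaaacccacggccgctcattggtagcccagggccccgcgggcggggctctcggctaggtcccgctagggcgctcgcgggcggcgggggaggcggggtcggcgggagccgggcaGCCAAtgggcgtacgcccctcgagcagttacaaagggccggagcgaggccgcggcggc

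The Tgfbr2 window held 2 matches to the NFI core, beginning at -155 and -67 relative to the start, and the Tgfbr1 window held 1, beginning at -58. A second annotated start of Tgfbr1 had 2 matches and the Smad3 window 1, while the Tgfb1 and Tgfb2 windows had 0. The Tgfb2 window, 186705990 to 186706239 on the minus strand, lies inside the gene span, which reaches 186709697. It precedes a start within that span, and the bases before the outermost end were not searched. The core is common: 41.5% of the 32851 promoters in the table hold it on either strand within the same 250 bases. The full palindrome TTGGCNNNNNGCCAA, which holds 2 cores, was in 0 of the 6 windows of these genes and in 0.0365% of all promoters. The SMAD element CAGAC, searched on both strands, was found once in the Tgfbr2 window, at -160, at -203 in the window of the second Tgfbr1 start, in 2 places in the Tgfb2 window and in 42.2% of all promoters. Its palindrome GTCTAGAC was in 0 of the 6 windows and in 0.167% of all promoters. Such matches describe these letters only. The series also holds a ChIP sample titled Nfia, but no binding data were analysed here.

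The SMAD genes showed no difference that passed the test. Smad2, a receptor-activated SMAD gene on chromosome 18 from 76241090 to 76311748, was 16.4, 16.5 and 15.9 FPKM in the controls and 16.3, 16.3 and 16.7 FPKM in the Nfia libraries. It had the narrowest interval of the set: the log2 difference was 0.01 with a 95% interval of -0.08 to 0.11 (limma adjusted p = 0.829). Its sign changed with upper-quartile scaling and with quantile normalization, so no direction is given.

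Smad3, the other SMAD gene activated by this receptor, lies on chromosome 9 from 63646766 to 63757994. It was 9.41, 11.1 and 9.79 FPKM in the controls and 8.56, 9.99 and 10.3 FPKM in the Nfia libraries, with overlapping groups. The log2 difference was -0.06 with a 95% interval of -0.27 to 0.14 (limma adjusted p = 0.613). Smad7, the inhibitory SMAD gene on chromosome 18 from 75367365 to 75395935, was 1.27, 1.503 and 1.21 FPKM in the controls and 1.03, 1.26 and 1.11 FPKM in the Nfia libraries. Its groups overlapped only through Nfia 2, and the log2 difference was -0.13 with a 95% interval of -0.39 to 0.14 (adjusted p = 0.422). Smad7 is itself induced when the pathway is active, and its difference here did not pass the test. The interval leaves room for a difference in either direction. Because changes of so low a gene are understated on this scale, a sizeable fall in FPKM is not excluded.

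**Figure D3:**
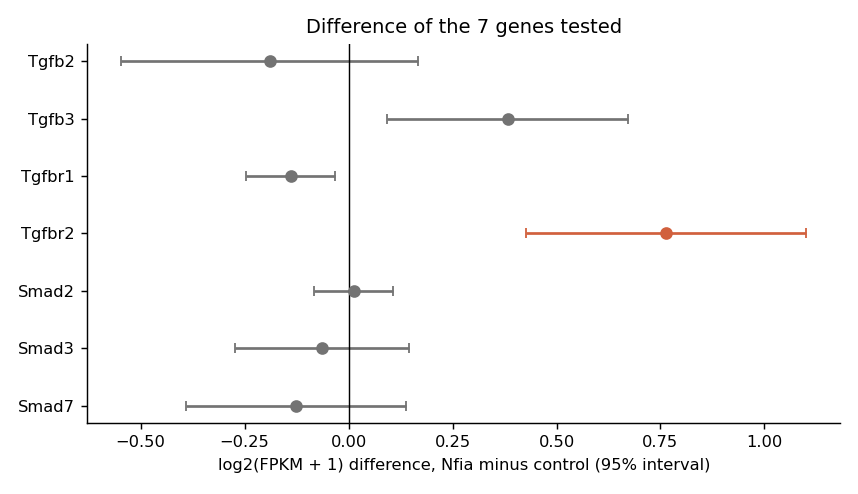
Log2(FPKM + 1) difference, Nfia minus control, of the 7 genes tested; points are limma estimates, bars 95% intervals, and the coloured point is the gene called. Tgfbr2 stands at 0.76, and the intervals of Tgfb3 (0.09 to 0.67) and Tgfbr1 (-0.25 to -0.03) leave out 0 although neither passed after adjustment.

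Within the Nfia group, 6 of the 9 genes (Tgfb2, Tgfb3, Tgfbr2, Tgfbr3, Smad2 and Smad3) were lowest in the library with the least Nfia (Nfia 1, 69.0 FPKM) and highest in that with the most (Nfia 3, 103.5 FPKM). Among all genes tested, which leave out Tgfbr3 and Tgfb1 as below the filter, 21.8% followed the same order. Among those called higher it was 29.3%. The relative depth of these libraries ran the other way, at 1.11 in Nfia 1, 0.911 in Nfia 2 and 0.760 in Nfia 3. With 3 libraries the relation was not tested.

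The nearest patterns over the 6 libraries were sought for the gene of each role with the largest difference in size, as the smallest root mean square difference between log2(FPKM + 1) profiles centred on their own means. Nearest to Tgfbr2 were Disc1 (0.0639), Kctd12 (0.0659) and Htra1 (0.0682). Htra1, a secreted serine protease gene, averaged 1.80 FPKM in the controls and 3.65 FPKM in the Nfia libraries. Nearest to Tgfb3 were Nell2 (0.0446), Rasal2 (0.0456) and Bicc1 (0.0475), and nearest to Smad7 were Fbxw9 (0.0305), Rwdd3 (0.0305) and Zfp622 (0.0317). A small value says only that these profiles ran close together in these libraries.

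Genes that hold TGF-beta latent in the matrix or release it were more often called higher than lower. Of 19 listed, 14 were tested, 7 rose and 0 fell, against 16.1% higher and 15.1% lower of all genes tested. Their median log2 difference was 0.34, against 0.01 for all genes. Ltbp4 and Ltbp3 encode latent TGF-beta binding proteins, which tether the latent complex. Ltbp4 was 3.15, 4.61 and 3.96 FPKM in the controls and 9.33, 9.24 and 10.2 FPKM in the Nfia libraries (log2 difference 1.12, SE 0.11, limma adjusted p = 0.000971). Ltbp3 was 2.75, 2.83 and 3.19 FPKM in the controls and 5.66, 7.09 and 7.65 FPKM in the Nfia libraries (log2 difference 0.98, adjusted p = 0.00137). In neither did the groups overlap, and both calls held without any 1 library.

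Mmp14, a membrane-anchored matrix protease gene, rose from 33.8 ± 1.73 to 43.6 ± 2.08 FPKM (SD, n = 3 per group; log2 difference 0.36, limma adjusted p = 0.00436). The other 4, named after their values were seen, were the integrin alpha-V gene Itgav (0.46), the fibrillin gene Fbn1 (0.73), the protease gene Mmp2 (0.95) and the elastic fibre gene Emilin1 (0.77). The call of Itgav ended without Nfia 2 (adjusted p = 0.0593) and that of Mmp2 without control 1, control 2, Nfia 2 or Nfia 3 (0.064 to 0.0846). Members that did not pass included Ltbp1 (log2 difference -0.05) and Itgb8 (0.01), the partner of integrin alpha-V in releasing TGF-beta in the brain. Without replicate 1 of both groups, the libraries with the lowest mesenchymal sums, the same 7 members were higher and 0 lower, and the mesenchymal marker Col1a1 was called higher as well. The part of mesenchymal cells in these values was not tested.

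The activin and nodal branch, whose receptors signal through the same SMAD2 and SMAD3, held genes that rose and genes that fell. Of 19 listed, 9 were tested, 2 rose and 3 fell, with a median log2 difference of -0.11. Of all genes tested, 16.1% were higher and 15.1% lower. Fst, the gene of the activin antagonist follistatin, was 2.32, 2.18 and 1.92 FPKM in the controls and 5.68, 6.45 and 6.97 FPKM in the Nfia libraries (log2 difference 1.23, SE 0.09, limma adjusted p = 0.000408). Inhbb, the gene of the activin beta-B subunit, was 1.32, 1.19 and 1.29 FPKM in the controls and 3.22, 3.57 and 3.29 FPKM in the Nfia libraries (log2 difference 0.94, adjusted p = 0.000626). Both were far apart between the groups.

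Gdf11, a ligand gene of the same branch, fell from 21.2 ± 0.266 to 13.3 ± 1.07 FPKM (SD, n = 3 per group; log2 difference -0.64, limma adjusted p = 0.000782). The receptor genes Acvr1b (log2 difference -0.33, adjusted p = 0.0301) and Acvr2b (-0.29, adjusted p = 0.0221) also fell. The call of Acvr1b ended without any 1 library other than Nfia 3 (adjusted p = 0.0573 to 0.0827), and that of Acvr2b without control 3, Nfia 2 or Nfia 3 (0.0686 to 0.0734). Without control 3 or without Nfia 2, 1 gene of the list was lower in place of 3, and likewise without replicate 1 of both groups.

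Among receptor partners and genes of the arm that does not use SMADs, 11 of 12 were tested, 0 rose and 1 fell, against 31.3% of all genes called in either direction, with a median log2 difference of -0.03. That gene was Traf6, a ubiquitin ligase gene of the TAK1 kinase arm (log2 difference -0.16, limma adjusted p = 0.0375), and its call ended when any 1 library was left out (0.0677 to 0.11). Eng, the gene of the co-receptor endoglin, averaged 0.797 FPKM in the controls and 1.29 FPKM in the Nfia libraries and did not pass (adjusted p = 0.117).

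Of 20 SMAD partners and regulators, 18 were tested, 5 rose and 3 fell, against 16.1% higher and 15.1% lower of all genes, with a median log2 difference of 0.01. Those that rose included the transcription factor gene Sp1 (log2 difference 0.27) and the SMAD corepressor genes Tgif2 (0.29) and Ski (0.25). The others were the deubiquitinase gene Usp15 (0.16) and Pmepa1 (0.41), a membrane protein gene that limits SMAD activation. Nedd4l (-0.27), a ubiquitin ligase gene acting on activated SMADs, Ldb1 (-0.25), a LIM-domain cofactor gene, and Usp9x (-0.16), a deubiquitinase gene, fell. Smad4, the common partner, averaged 44.7 FPKM in the controls and 45.4 FPKM in the Nfia libraries and did not pass (limma adjusted p = 0.686). The number higher was 2 without control 1 and 2 without Nfia 2, and 3 without control 2 and 3 without Nfia 3. The calls of Ski, Usp15 and Usp9x ended in most of these comparisons: Ski passed without Nfia 1 alone, Usp15 without control 3 or Nfia 3, and Usp9x without Nfia 3 alone. Without replicate 1 of both groups, 2 of the list were higher and 1 lower.

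Of 26 genes that TGF-beta is known to induce in other cell types, 20 were tested, 3 rose and 0 fell, against 16.1% higher and 15.1% lower of all genes, with a median log2 difference of 0.01. Zeb1, a zinc finger repressor gene that neural precursors also express, rose from 45.6 ± 1.58 to 75.1 ± 0.932 FPKM (SD, n = 3 per group; log2 difference 0.71, limma adjusted p = 0.000179). Bhlhe40, a repressor gene, rose by a log2 difference of 0.35 (adjusted p = 0.00684) and Pmepa1 by 0.41 (adjusted p = 0.0191). The call of Pmepa1 ended without control 1 (adjusted p = 0.0583), Nfia 2 (0.0753) or Nfia 3 (0.0673), each of which left 2 members higher. Skil, the connective tissue growth factor gene Ctgf and the cell cycle inhibitor gene Cdkn2b, often used as readouts of the pathway, did not pass. They were named after their values were seen. Their log2 differences were -0.02 (95% interval -0.17 to 0.13), -0.10 (-0.90 to 0.70) and 0.00486 (-0.45 to 0.46). The intervals of Ctgf and Cdkn2b leave room for a sizeable difference in either direction. Whether the output of the pathway changed was not tested. Without replicate 1 of both groups 6 members were higher: beside Zeb1, Bhlhe40 and Pmepa1, these were Col1a1 (0.57), Col4a1 (0.52) and Fn1 (0.40), genes of collagens and fibronectin.

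**Figure D4:**
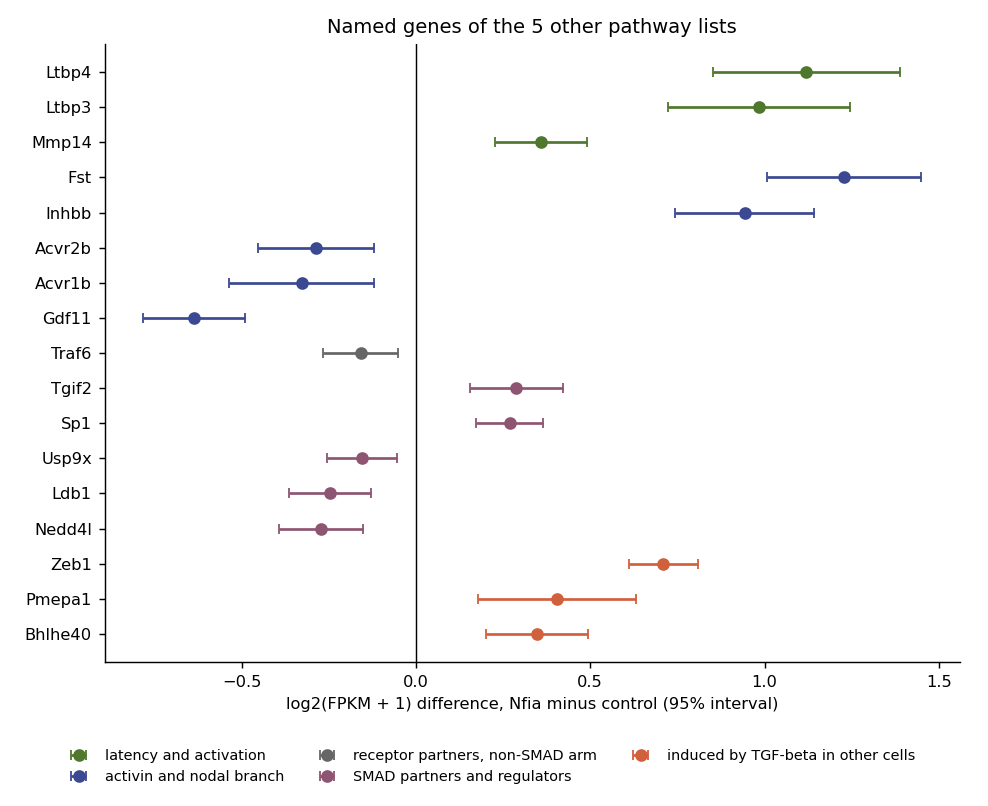
Log2(FPKM + 1) difference, Nfia minus control, with 95% intervals from limma, of the genes named by rule from the 5 other pathway lists, coloured by list. Fst (1.23), Ltbp4 (1.12), Ltbp3 (0.98) and Inhbb (0.94) lie farthest above 0 and Gdf11 (-0.64) farthest below it.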

How the data were processed

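Each RNA-seq library was deposited by the authors as 1 FPKM value per gene symbol; the unit was read from the values and the tools named, since the files have no header. Poly(A) RNA and a directional kit were used, per the labels' protocols. Cufflinks, Cuffdiff, TopHat, Bowtie version 1, SAMtools, MACS version 1.4 and the mm10 build are listed in the submitters' processing notes. How strand was used, the annotation and any filter were not given in the sources used here. The Flag ChIP sample, titled Nfia ChIP, and the IgG ChIP sample were not analysed here.

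Genes whose mean over the 6 libraries reached 1 FPKM were compared as log2(FPKM + 1) with limma 3.58.1 in R 4.3.3 (eBayes with a variance trend, two-sided, Benjamini-Hochberg). The fit was tested on simulated data. Alternatives changed the pseudocount, filter, scaling, variance trend, replicate block and libraries. Named were the 9 genes, up to 3 called genes per list with the smallest adjusted p and groups apart, all called genes where a direction held 3 or fewer, and the 3 nearest patterns, passing over predicted genes and small RNAs; other genes were named after their values were seen. The 9 genes and the lists were chosen with earlier results of these data known. Relative depth came from genes with a mean below 0.3 FPKM. Gene spans and promoters are from RefSeq tables of GRCm38.p6, the assembly that mm10 denotes. A planned comparison of protein sequences was not made.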

Additional observations from a re-analysis of the deposited data

How the results depend on the processing

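Over all genes tested, 2020 were higher and 1898 lower. Leaving out 1 library gave 1290 to 1625 higher and 1251 to 1572 lower, lowest without Nfia 2, and leaving out replicate 1 of both groups gave 1008 and 950. Of the 9 genes, 1 was higher and 0 lower. The number higher was 2 (Tgfbr2 and Tgfb3) with a pseudocount of 0.1, quantile normalization, no variance trend or a robust trend, and without replicate 1 of both groups (this comparison, and that with no filter and a pseudocount of 0.1, were chosen after seeing the data), and 0 with the filter set at 5 FPKM, which Tgfbr2 does not pass. The number lower was 1 (Tgfbr1) at that filter and with upper-quartile scaling, median-of-ratios scaling or quantile normalization. Leaving out 1 library gave 1 to 2 higher and 0 to 1 lower. The log2 difference of Smad2 was -0.020 with upper-quartile scaling, -0.0094 with quantile normalization and -0.0021 without control 3 (range on leaving out 1 library -0.0021 to 0.023). That of Smad3 was 0.011 without Nfia 1 (range -0.11 to 0.011), and the share of Tgfb1 in the ligand sum then differed by 0.0738 points (range -2.19 to 0.0738). The cause was not tested.

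With the replicate number as a block, 2130 genes were higher and 1916 lower, and of the 9 genes 1 was higher and 0 lower (Tgfbr2, adjusted p = 0.00493). Of the genes known to be induced by TGF-beta, 6 were higher in place of 3, and among latency genes 8 in place of 7. The calls of Acvr2b, Traf6, Usp9x and Usp15 were lost under the block, leaving 2 lower in the activin and nodal branch, 0 lower among receptor partners, and 4 higher and 2 lower among SMAD partners. Over all genes tested, deviations of equally numbered libraries correlated by 0.0264, -0.00578 and 0.0461, so the numbers were not taken as pairs. Such values over all genes do not settle it for single genes. The mesenchymal sum was lowest in control 1 (9.86 FPKM) and Nfia 1 (8.43 FPKM), and Tgfbr2 was lowest there too. No depth or counting interval can be given. At the low levels of Tgfb1, Tgfbr3 and Smad7 a difference could be missed, and not only a small one. The Nfia mean of Tgfbr3 was 2.42 times the control mean, and the gene did not pass when no filter was set.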
